A study of Mus musculus with 12 samples.

Results

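The genes described here are the ligands and receptors that steer growing axons. They comprise the semaphorins and their plexin receptors, the slits and Robo receptors, the ephrins and Eph receptors, the netrins, netrin-G proteins, Unc5 receptors and Dcc, and the Slitrk proteins with Islr2 (also called Linx). All were taken by symbol, and 76 of the 21956 genes of the count table matched. The symbol rule uses no measured value, but it was chosen with earlier results of these data known. The table's own KEGG annotation places 65 of them in its axon guidance pathway, and the other 11 are Epha10, Plxnd1, Robo4, Islr2, Ntn5 and the 6 Slitrk genes.

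RNA was sequenced from brain tissue next to the hematoma, 48 h after intracerebral hemorrhage (ICH) induced by collagenase injection into the right striatum. Sham mice had the same operation without collagenase, and their tissue was taken by the same procedure. All mice carried loxP-flanked Fabp4, the gene of fatty acid-binding protein 4. The labels name no Cre for Fabp4fl/fl mice, whereas Fabp4CKO mice also carried 1 copy of Tmem119-CreERT2, a tamoxifen-inducible Cre recombinase driven from a gene of resident microglia. Tamoxifen (150 mg/kg daily, 7 days) was given to Fabp4CKO mice, which were operated on 14 days after its last dose; whether Fabp4fl/fl mice received tamoxifen, and the age of either line at surgery, are not given in the sources used here. The groups Sham-Fabp4fl/fl, ICH-Fabp4fl/fl, Sham-Fabp4CKO and ICH-Fabp4CKO had 3 numbered libraries each. Nothing states that each library was a separate mouse, so the p-values measure the spread between these libraries only. The deletion concerns microglia, while the RNA came from whole tissue, in which fewer cells of a type and less RNA per cell cannot be told apart.

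During development, semaphorins, slits, ephrins and netrins attract or repel growth cones through plexins, Robo proteins, Eph receptors, and Dcc or Unc5 proteins. In the adult brain many of these genes remain active in neurons, where they take part in synapse maintenance. Several members serve other cells: Robo4, Ephb4 and Plxnd1 are receptors of the vascular endothelium, and class 4 semaphorins with B-type plexins are used by glia and immune cells.

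Library totals ran from 15650813 to 22406216 estimated reads, and each library had reads for 75 or 76 of the 76 genes. Levels are given as CPM, read counts relative to the TMM-scaled library total, and fold changes on the log2 scale with a standard error (SE). Fabp4 itself had 24 to 63 reads in the ICH-Fabp4fl/fl libraries, 3 to 10 in ICH-Fabp4CKO, 1 or 2 in Sham-Fabp4fl/fl and 0 in Sham-Fabp4CKO. ICH-Fabp4fl/fl library 1 stood apart in its mitochondrial reads, at 16.3% against 7.90% to 11.9% elsewhere. Y-linked genes had 1 read in ICH-Fabp4CKO library 1 and 1302 to 2251 reads in the others.

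Sham-Fabp4fl/fl libraries 1 and 2 differed from library 3 in regional markers. The summed level of 10 markers of striatal projection neurons was 1858, 2142 and 5901 CPM in the Sham-Fabp4fl/fl libraries and 4918, 6908 and 3926 CPM in Sham-Fabp4CKO. For 10 markers of cortical excitatory neurons the sums were 629, 737 and 215 CPM and 275, 276 and 208 CPM. For 7 thalamic markers, a list added after values were seen, they were 1237, 852 and 206 CPM and 254, 209.6 and 365 CPM. Libraries 1 and 2 of Sham-Fabp4fl/fl were therefore low in striatal and high in cortical and thalamic markers, relative to every other sham library.

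The ICH groups also differed in cell type markers. The 10 pan-neuronal markers summed to 1726, 2695 and 3917 CPM in ICH-Fabp4fl/fl and 2383, 4881 and 1689.7 CPM in ICH-Fabp4CKO, against 5583 to 6900 CPM in sham. Cortical excitatory markers were at 57.97, 84.2 and 162 CPM in ICH-Fabp4fl/fl and 159.5, 576 and 165 CPM in ICH-Fabp4CKO. Endothelial markers (10 genes) were at 1811, 1122 and 705 CPM in ICH-Fabp4fl/fl and 556, 355 and 489 CPM in ICH-Fabp4CKO, against 257 to 293 CPM in sham. ICH-Fabp4CKO library 2 thus held more neuronal RNA than libraries 1 and 3 of its group, and its sum of 10 monocyte and macrophage markers was lower, at 1310 CPM against 6467 and 10717 CPM.

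**Figure D1:**
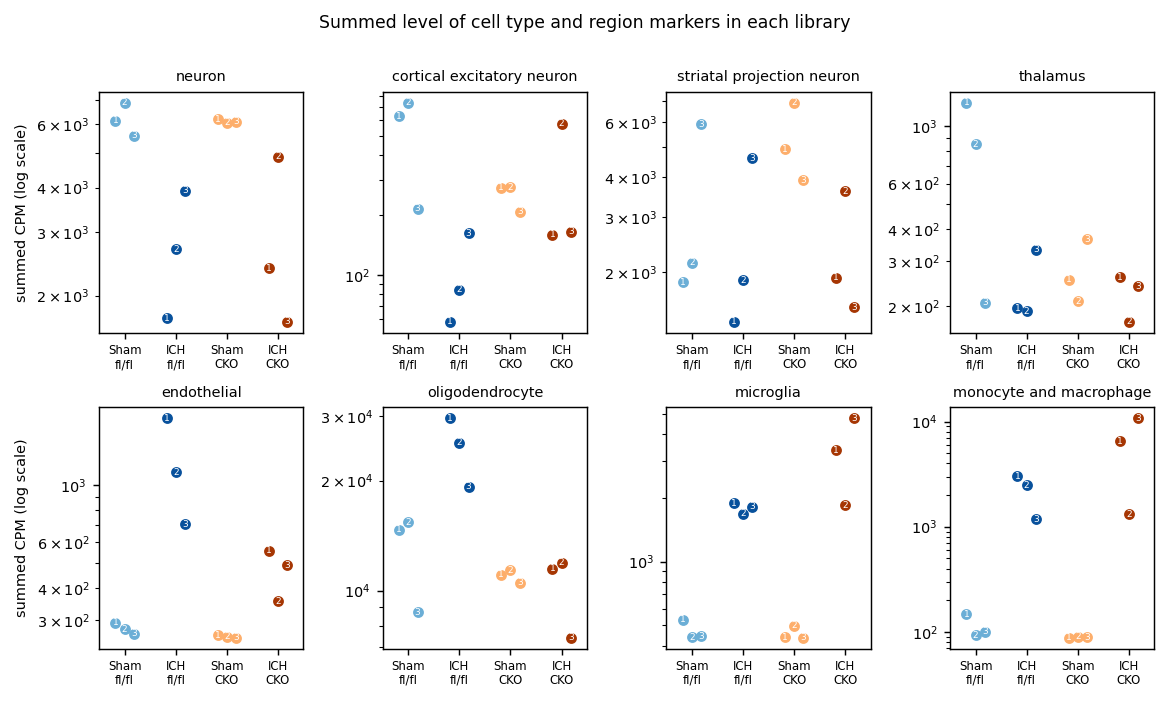
Summed CPM (log scale) of marker lists in each library, by group; each point is 1 library and carries its number. Sham-Fabp4fl/fl libraries 1 and 2 sit apart from the other sham libraries in the striatal, cortical and thalamic panels, and the 3 ICH-Fabp4fl/fl libraries (705 to 1811 CPM) sit above the 3 ICH-Fabp4CKO libraries (355 to 556 CPM) in the endothelial panel.

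The response to ICH was examined first in Fabp4fl/fl mice. Of the 76 genes, 74 had enough reads to be tested, and with edgeR's quasi-likelihood test and Benjamini-Hochberg adjustment over all genes 34 were lower and 11 higher in ICH-Fabp4fl/fl than in Sham-Fabp4fl/fl. Members were lower more often than the table as a whole, where 19.3% of tested genes passed as lower and 26.2% as higher, against 45.9% and 14.9% of the members. The median log2 fold change was -0.76 over the 74 members and 0.02 over all genes tested. The sham and ICH libraries did not overlap for 47 members, or 63.5%, close to the 61.8% of all genes. A fit against Sham-Fabp4fl/fl library 3 alone was chosen after seeing the data, and assumes that this library varies like the others. In it 71 of 74 members had the same direction, with a median log2 fold change of -0.95.

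**Figure D2:**
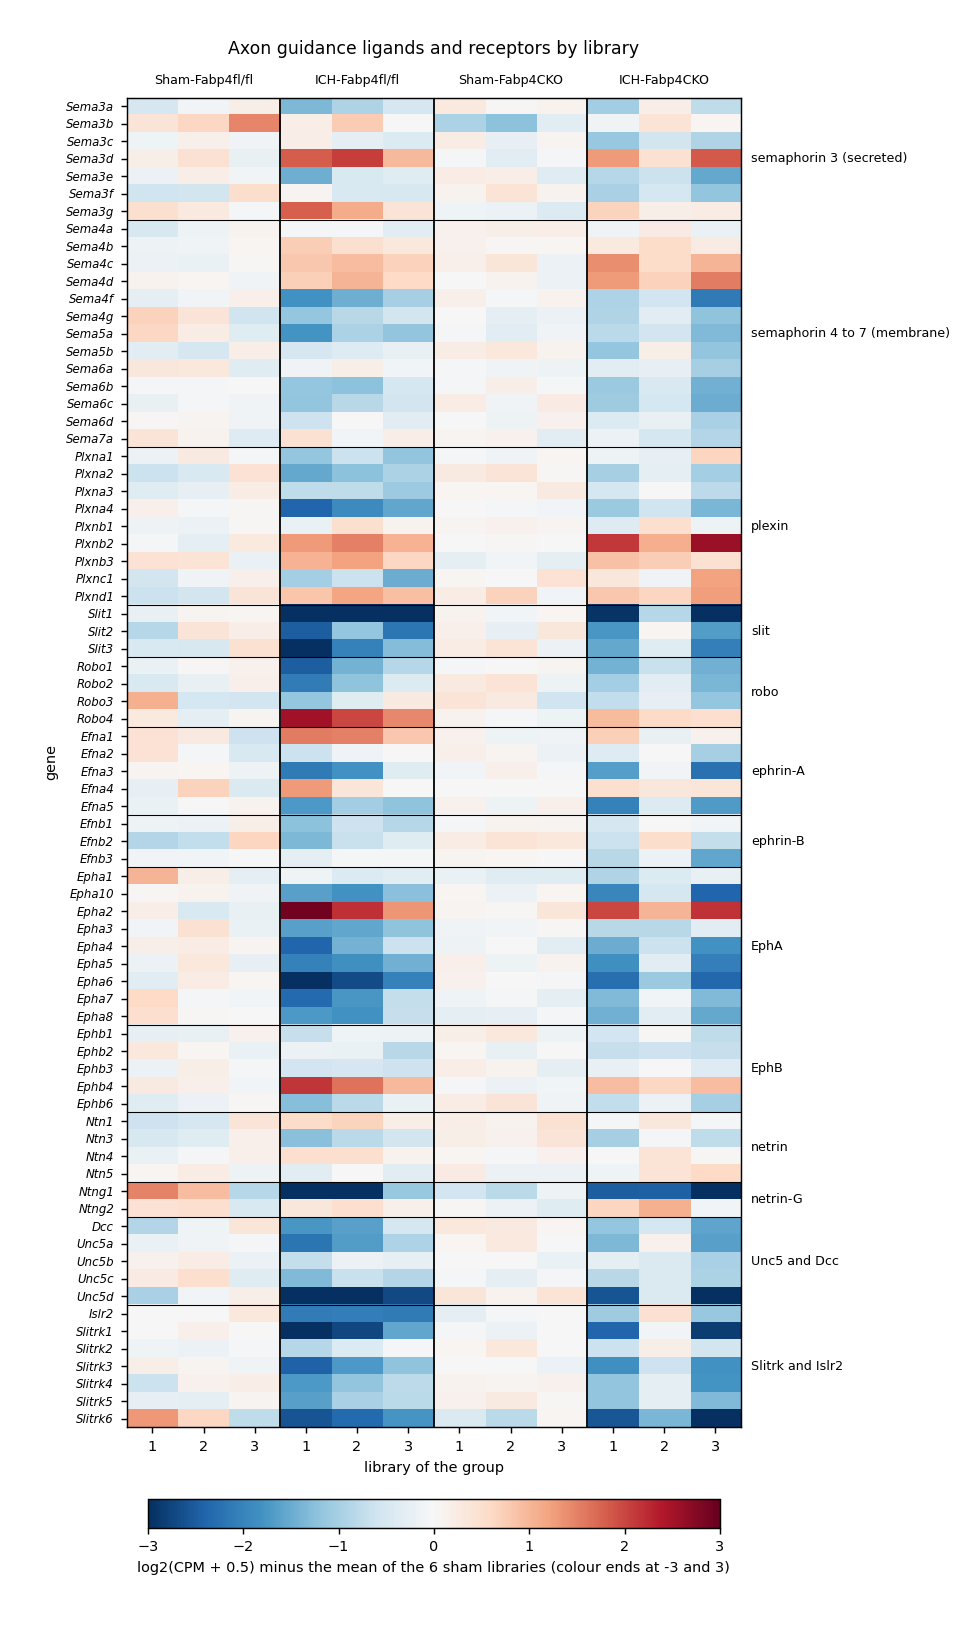
Level of the 76 genes in each of 12 libraries, as log2(CPM + 0.5) minus the mean of the 6 sham libraries, with genes in rows by family and libraries in columns by group. Slit1, Unc5d, Epha6, Slitrk1 and Slitrk6 are dark blue in most ICH libraries, Epha2, Ephb4, Robo4, Plxnb2 and Sema3d are red, and ICH-Fabp4CKO library 2 is paler than libraries 1 and 3.

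Among the 7 secreted class 3 semaphorins, which signal through neuropilins and plexins, 1 passed the test. Sema3d rose from 8.14, 10.02 and 6.14 CPM in the Sham-Fabp4fl/fl libraries to 26.5, 31.98 and 14.6 CPM in ICH-Fabp4fl/fl, a log2 fold change of 1.54 (SE 0.31, adjusted p = 0.00726). Each ICH library exceeded each sham library. Sema3g, made by arterial endothelium, was at 9.49, 8.38 and 6.402 CPM in sham and 24.6, 15.1 and 8.93 CPM after ICH, with a log2 fold change of 0.95 (SE 0.35, adjusted p = 0.0591) that did not pass. Library 3 of the ICH group lay among the sham values. Sema3a, the classical repellent of this class, had the lowest log2 fold change of the class, -0.83 (SE 0.30, adjusted p = 0.0558). Sema3b, Sema3c, Sema3e and Sema3f had log2 fold changes between -0.71 and -0.16 and none passed.

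The 13 membrane-bound semaphorins of classes 4 to 7 moved in both directions, with 3 higher, 5 lower and 5 not past the threshold. All 3 that rose belong to class 4, whose members bind B-type plexins. Sema4c, a ligand of Plexin-B2, was at 11.3, 11.1 and 13.2 CPM in sham and 23.1, 24.997 and 21.3 CPM after ICH, a log2 fold change of 0.92 (SE 0.15, adjusted p = 0.00315). Sema4d, a ligand of Plexin-B1 that oligodendrocytes and lymphocytes make, was at 100.02, 96.8 and 87.1 CPM and 154, 189 and 141 CPM, with a log2 fold change of 0.73 (SE 0.16, adjusted p = 0.00934). Sema4b had the smallest of the 3 rises, 0.57 (SE 0.16, adjusted p = 0.0264).

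The membrane semaphorins that fell were Sema4f, Sema4g, Sema5a, Sema6b and Sema6c. Sema5a, which carries thrombospondin repeats, fell from 122, 92 and 61.1 CPM to 22.5, 40.5 and 34.5 CPM, a log2 fold change of -1.53 (SE 0.31, adjusted p = 0.00735) that was -0.99 against Sham-Fabp4fl/fl library 3 alone. Sema4f fell from 25.2, 29.5 and 34.6 CPM to 8.51, 10.9 and 15.4 CPM, a log2 fold change of -1.38 (SE 0.26, adjusted p = 0.00537). Both genes had ICH libraries entirely below the sham libraries. Sema4g had a log2 fold change of -1.14 (SE 0.34, adjusted p = 0.0299), but Sham-Fabp4fl/fl library 3 (18.3 CPM) lay within the ICH values of 12.2, 15.5 and 18.8 CPM, and against that library alone the log2 fold change was -0.32. Sema6b and Sema6c, membrane-bound ligands of A-type plexins, had log2 fold changes of -0.95 and -0.79. Sema4a, Sema5b, Sema6a, Sema6d and Sema7a had log2 fold changes between -0.34 and 0.10.

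The 9 plexins, the semaphorin receptors, divided by class. All 4 A-type plexins and Plxnc1 fell, Plxnb2, Plxnb3 and Plxnd1 rose, and Plxnb1 had a log2 fold change of 0.21 (SE 0.20, adjusted p = 0.42). Plxna4, a receptor for Sema3a and class 6 semaphorins in neurons, stood at 104, 91.3 and 94.8 CPM in sham and 17.7, 24.2 and 31.1 CPM after ICH, a log2 fold change of -2.02 (SE 0.23, adjusted p = 0.000792). Plxna1, a partner of neuropilins, went from 83.98, 115 and 92.9 CPM to 42.1, 60.5 and 41.6 CPM, a log2 fold change of -1.06 (SE 0.20, adjusted p = 0.00597). Plxna2, Plxna3 and Plxnc1, the last the receptor of Sema7a, fell by 1.12, 0.82 and 0.93 on the log2 scale.

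Plxnb2, the plexin for Sema4c, is expressed by macrophages and microglia as well as by neural precursors. It rose from 88.5, 75.3 and 111 CPM to 221, 262 and 187 CPM, a log2 fold change of 1.24 (SE 0.20, adjusted p = 0.0031). In the same comparison 8 of 9 tested microglial markers (median log2 fold change 1.82) and 9 of 10 monocyte and macrophage markers (median 5.24) rose. As a percent of the microglial sum, a ratio chosen after values were seen, Plxnb2 was lower after ICH, at 16.7, 17.1 and 24.99% in sham and 11.7, 15.5 and 10.3% after ICH. Plxnb3, a plexin of the oligodendrocyte lineage, had a log2 fold change of 0.70 (SE 0.22, adjusted p = 0.0363), and 4 of 10 oligodendrocyte markers rose in the same comparison (median 0.77). Plxnd1, a receptor of Sema3e, was at 50.2, 53.4 and 103 CPM in sham and 141, 181 and 147 CPM after ICH. Its log2 fold change was 1.14 (SE 0.30, adjusted p = 0.0182). The sham level of Plxnd1 was unequal. Over the sham libraries of both genotypes it ranked in the same order as the striatal marker sum, whereas the endothelial sum varied little. Against library 3 alone its log2 fold change was 0.51. The part of microglial, oligodendrocyte or endothelial RNA, or of the region dissected, in these rises was not tested.

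Slits are secreted repellents that bind Robo1 and Robo2, and all 3 slits fell. Slit1 was at 65.7, 82.03 and 80.2 CPM in the sham libraries and 4.502, 8.23 and 8.77 CPM after ICH, a log2 fold change of -3.43 (SE 0.28, adjusted p = 0.00035), the lowest of the 74 genes tested. As a percent of the summed pan-neuronal markers, a ratio chosen after values were seen, Slit1 was 1.07, 1.19 and 1.44% in sham and 0.261, 0.305 and 0.224% after ICH, so it fell further than those markers did. Slit2 fell from 14.7, 35.8 and 31.2 CPM to 4.43, 11.8 and 5.63 CPM (log2 fold change -1.94, SE 0.45, adjusted p = 0.0126), and Slit3 from 26.9, 26.2 and 50.6 CPM to 4.22, 8.66 and 14.7 CPM (log2 fold change -1.93, SE 0.48, adjusted p = 0.0152). Neither gene's ICH libraries overlapped its sham libraries, although Slit2 was low in Sham-Fabp4fl/fl library 1 and Slit3 in libraries 1 and 2.

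The 4 Robo receptors split. Robo1 fell from 65.7, 78.2 and 82.2 CPM to 13.2, 28.2 and 41.5 CPM, a log2 fold change of -1.47 (SE 0.38, adjusted p = 0.0188). Robo2 was at 73.3, 87.2 and 113 CPM and 23.4, 43.8 and 75.98 CPM, and its log2 fold change of -0.96 (SE 0.41, adjusted p = 0.0932) did not pass, with ICH library 3 within the sham range. Robo3, with at most 59 reads in a library, had a log2 fold change of -0.74 (SE 0.84, adjusted p = 0.492). Robo4, the endothelial member of the family, rose instead, from 8.67, 5.695 and 7.43 CPM to 42.9, 29.5 and 19.98 CPM, a log2 fold change of 2.03 (SE 0.29, adjusted p = 0.00192).

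Robo4 moved together with the 10 endothelial markers, all of which rose in this comparison (median log2 fold change 2.33). As a percent of their summed CPM, a ratio chosen after values were seen, Robo4 was 2.96, 2.06 and 2.798% in Sham-Fabp4fl/fl, 2.37, 2.63 and 2.83% in ICH-Fabp4fl/fl, 2.92, 2.65 and 2.44% in Sham-Fabp4CKO and 2.52, 3.02 and 2.07% in ICH-Fabp4CKO. Over the 12 libraries the highest of these percents was 1.46 times the lowest, while the highest CPM of Robo4 was 7.54 times the lowest. Ephb4, a receptor of venous endothelium, had a corresponding 1.73-fold range in percent and 5.37-fold range in CPM, and its percents were lower in ICH-Fabp4fl/fl (1.74, 1.97 and 1.96%) than in Sham-Fabp4fl/fl (2.79, 2.75 and 2.37%), without overlap. Plxnd1 had a 6.31-fold range in percent and a 3.74-fold range in CPM, the reverse order.

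Ephrin-A proteins are tethered to the membrane by a lipid anchor and mainly activate EphA receptors. Of 5 ephrin-A genes, Efna1 rose and Efna5 fell. Efna1, which endothelial cells express in response to cytokines, was at 6.17, 5.42 and 2.68 CPM in sham and 13.999, 13.5 and 8.08 CPM after ICH, a log2 fold change of 1.27 (SE 0.35, adjusted p = 0.0227). Efna5, the topographic map ligand, was at 10.6, 12.2 and 13.3 CPM and 3.38, 5.67 and 5.05 CPM, a log2 fold change of -1.39 (SE 0.25, adjusted p = 0.00461). Efna2, Efna3 and Efna4 did not pass, with log2 fold changes of -0.31, -1.26 and 1.00. Of the 3 transmembrane ephrin-B genes, Efnb1 fell from 9.68, 9.53 and 12.3 CPM to 4.29, 6.86 and 5.68 CPM (log2 fold change -0.94, SE 0.24, adjusted p = 0.0176), and Efnb2 and Efnb3 had values of -0.63 and -0.10 without passing.

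Of 8 EphA receptors tested, 7 fell and 1 rose. Epha6, a forebrain receptor, fell from 13.3, 19.99 and 17.8 CPM to 1.27, 2.24 and 3.83 CPM, a log2 fold change of -2.81 (SE 0.40, adjusted p = 0.00186). Epha3 was at 4.63, 6.95 and 4.23 CPM in sham and 1.27, 1.37 and 1.86 CPM after ICH, a log2 fold change of -1.83 (SE 0.33, adjusted p = 0.00461). Epha5, a neuronal receptor of ephrin-A5, went from 45.7, 64.02 and 43.4 CPM to 12.2, 14.1 and 18.5 CPM, a log2 fold change of -1.80 (SE 0.24, adjusted p = 0.00133). Epha10, a member that lacks kinase activity, went from 20.9, 21.96 and 18.9 CPM to 6.19, 5.36 and 8.24 CPM, a log2 fold change of -1.67 (SE 0.21, adjusted p = 0.00119). Epha4, Epha7 and Epha8 fell by 1.504, 1.68 and 1.62 on the log2 scale. The ICH libraries of all 7 genes lay below every sham library, and within the ICH group library 3, which held the most neuronal RNA, had the highest level of each.

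The exception was Epha2, a receptor of ephrin-A1 in epithelial and endothelial cells. Its level was 2.07, 1.15 and 1.45 CPM in sham and 16.2, 9.79 and 5.15 CPM after ICH, a log2 fold change of 2.67 (SE 0.45, adjusted p = 0.00356), the highest of the 74 genes. Epha2 and its ligand Efna1 thus rose together. Epha1, with 2 to 39 reads per library, was not tested in this comparison. Of the 5 EphB receptors, Ephb4 rose from 8.19, 7.61 and 6.299 CPM to 31.5, 22.1 and 13.8 CPM, a log2 fold change of 1.56 (SE 0.29, adjusted p = 0.00537). Ephb3 had the lowest value of that family, -0.64 (SE 0.19, adjusted p = 0.0283), and Ephb1, Ephb2 and Ephb6 lay between -0.57 and -0.23 without passing. In each of Robo4, Epha2 and Ephb4 the ICH-Fabp4fl/fl libraries ranked in the same order as in the endothelial sum, library 1 highest and library 3 lowest. As a percent of that sum, however, Epha2 was 0.707, 0.416 and 0.544% in sham and 0.894, 0.872 and 0.731% after ICH. It was thus higher without overlap, as also in Fabp4CKO. In Fabp4fl/fl the percents of Ephb4 and Sema3g were lower after ICH, and those of Robo4, Efna1 and Plxnd1 overlapped. In Fabp4CKO those of Efna1 were lower, and those of Robo4, Ephb4, Sema3g and Plxnd1 overlapped.

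Netrins are secreted cues that attract axons through Dcc and repel them through Unc5 proteins. None of the 3 netrins tested passed: Ntn1 was at 13.5, 14.7 and 27.8 CPM in sham and 31.5, 34.04 and 24.4 CPM after ICH (log2 fold change 0.64, SE 0.29, adjusted p = 0.109), and Ntn3 and Ntn4 had values of -0.73 and 0.39. Ntn5 had 0 to 8 reads per library and was not tested. The receptors Unc5a, Unc5c and Unc5d fell. Unc5d was at 15.2, 28.6 and 34.1 CPM in sham and 1.34, 2.99 and 4.197 CPM after ICH, a log2 fold change of -3.20 (SE 0.47, adjusted p = 0.00204). Unc5a went from 53.3, 56.8 and 59.4 CPM to 13.2, 18.8 and 32.2 CPM, a log2 fold change of -1.42 (SE 0.32, adjusted p = 0.011), and Unc5c fell by 1.17 on the log2 scale. Dcc (-1.10, SE 0.44, adjusted p = 0.0764) and Unc5b (-0.46, SE 0.19, adjusted p = 0.0882) did not pass.

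Netrin-G1 (Ntng1) is a membrane-anchored protein of thalamocortical axons that binds NGL-1 rather than Dcc. Its level was 169, 115 and 32.9 CPM in sham and 3.02, 1.99 and 27.2 CPM after ICH, a log2 fold change of -3.29 (SE 1.05, adjusted p = 0.0377). Both sham libraries that were high in thalamic markers were high in Ntng1, and against Sham-Fabp4fl/fl library 3 alone the log2 fold change was -1.65 (adjusted p = 0.39). Ntng2 was at 9.64, 10.1 and 4.96 CPM and 9.004, 10.1 and 7.76 CPM, a log2 fold change of 0.08 (SE 0.29, adjusted p = 0.833).

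Slitrk proteins organise synapses through receptor tyrosine phosphatases, and Islr2 is a leucine-rich-repeat protein of axons. Of these 7 genes 6 fell. Islr2 had the smallest p of the 74 genes: its level was 42.98, 42.9 and 52.97 CPM in sham and 9.57, 9.79 and 9.46 CPM after ICH, a log2 fold change of -2.31 (SE 0.15, adjusted p = 0.000283). Slitrk1 went from 60.03, 66.8 and 60.4 CPM to 6.26, 8.603 and 20.1 CPM, a log2 fold change of -2.43 (SE 0.42, adjusted p = 0.00398), and Slitrk3 from 67.8, 63.7 and 56.1 CPM to 10.8, 17.7 and 25.8 CPM, a log2 fold change of -1.81 (SE 0.31, adjusted p = 0.00388). In each of the 3 genes the ICH libraries lay far below the sham libraries. Slitrk6 was at 28.7, 17.8 and 6.51 CPM and 1.48, 1.87 and 2.98 CPM, and its log2 fold change of -3.08 (SE 0.57, adjusted p = 0.00515) became -1.69 (adjusted p = 0.092) against Sham-Fabp4fl/fl library 3 alone. Slitrk4 and Slitrk5 fell by 1.17 and 1.00 on the log2 scale, and Slitrk2 had a value of -0.33 (SE 0.22, adjusted p = 0.259).

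Neuronal and cortical marker RNA was also lower in Fabp4fl/fl. In the same comparison all 10 pan-neuronal markers fell (median log2 fold change -1.195), 8 of 10 cortical excitatory markers fell (median -3.18), and 0 of 10 striatal markers passed (median -0.47, 0 at an unadjusted p under 0.05). Sham-Fabp4fl/fl libraries 1 and 2, high in cortical and low in striatal markers, enter the last 2 medians. In Fabp4CKO 4 of 10 striatal markers were lower after ICH (median -1.15, 8 at an unadjusted p under 0.05). Of the cortical markers 1 of 10 was lower there (median 0.09, 3 at an unadjusted p under 0.05). A sparing of striatal RNA was therefore not shown. The levels of 9 members were also taken as a percent of the summed pan-neuronal markers, ratios chosen after values were seen. These were the 9 genes with the smallest p among those that fell in the same Fabp4fl/fl libraries. Lower percents in Fabp4fl/fl were therefore favoured by the choice, and other members were not taken this way. In Fabp4fl/fl, 8 of them (Slit1, Unc5d, Epha6, Slitrk1, Islr2, Plxna4, Epha5 and Slitrk3) were lower in every ICH than in every sham library, and Epha10 overlapped. Unc5d was 0.247, 0.414 and 0.611% in Sham-Fabp4fl/fl and 0.0774, 0.111 and 0.107% in ICH-Fabp4fl/fl, and Slitrk3 1.104, 0.924 and 1.005% and 0.624, 0.657 and 0.659%. In Fabp4CKO, Slit1, Unc5d, Epha6 and Epha10 were lower after ICH without overlap, 4 others overlapped, and Islr2 was higher, at 0.559, 0.686 and 0.691% in Sham-Fabp4CKO and 0.846, 1.19 and 1.12% in ICH-Fabp4CKO against 0.699, 0.622 and 0.949% and 0.554, 0.363 and 0.241% in the Fabp4fl/fl groups. The part of lost neurons, or of the region dissected, in the falls was not tested.

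**Figure D3:**
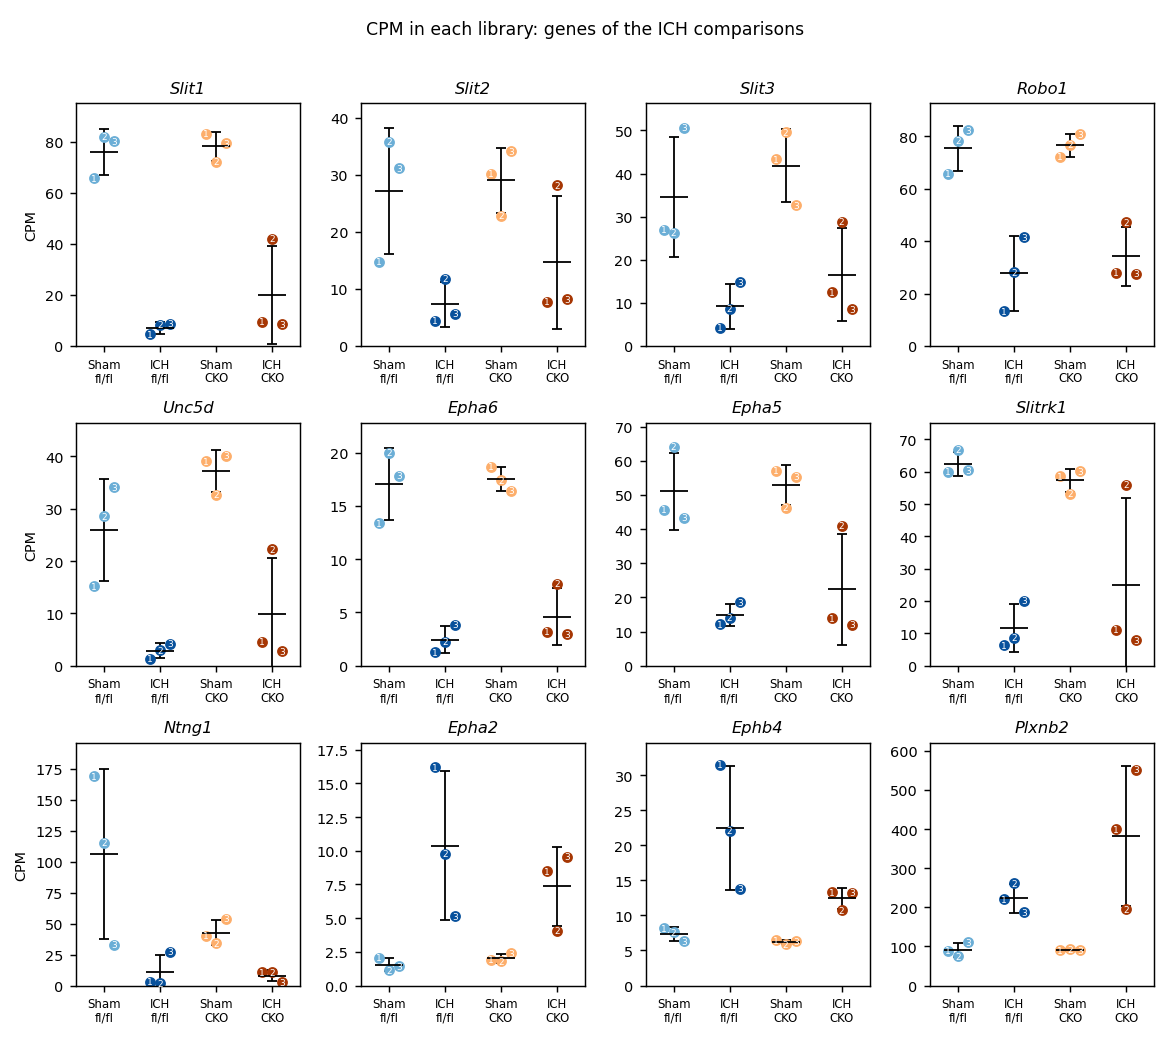
CPM of 12 genes in each library by group; numbered points are libraries, the horizontal mark is the mean and the bar 1 SD (n = 3). Slit1, Unc5d, Epha6 and Slitrk1 are low in ICH-Fabp4fl/fl and in ICH-Fabp4CKO libraries 1 and 3, Ntng1 is high in Sham-Fabp4fl/fl libraries 1 and 2, and Epha2, Ephb4 and Plxnb2 are higher after ICH in both genotypes.

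The promoters of the leading genes are shown for their sequence context, since the members in each direction moved together. RefSeq promoter windows on GRCm38.p6 were matched for 65 of the 76 genes, with 84 windows, and the 250 bases before the transcription start were searched on both strands for an AP-1 site (TGANTCA), the hypoxia response core (ACGTG), an ETS core (CCGGAA) and a GC box (GGGCGG). GC boxes were in 65.5% of the members' windows and in 32.7% of all 32851 windows. The share was 67.6% of 34 windows of members that fell and 70.6% of 17 windows of members that rose. AP-1 sites were in 5.88% and 11.8% of these windows and in 6.75% of all windows, the hypoxia core in 23.5% and 17.6% against 16.6%, and the ETS core in 0% and 11.8% against 12.03%.

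The windows of the 2 genes with the smallest p in each direction that had one, taking the most upstream where a gene had several, follow 5′ to 3′ with motif matches in capitals. Islr2 (chr9:58204320-58204569, minus strand) and Epha10 (chr4:124881535-124881784, plus strand) fell, and Robo4 (chr9:37401722-37401971, plus strand) and Plxnb2 (chr15:89180789-89181038, minus strand) rose. All capitals mark GC boxes, and the Robo4 window holds none of the 4 motifs.
Islr2: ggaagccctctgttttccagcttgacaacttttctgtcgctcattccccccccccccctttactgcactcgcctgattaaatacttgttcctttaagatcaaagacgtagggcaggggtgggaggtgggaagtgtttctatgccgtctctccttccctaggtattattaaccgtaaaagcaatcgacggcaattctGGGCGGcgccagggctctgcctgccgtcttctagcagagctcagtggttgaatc
Epha10: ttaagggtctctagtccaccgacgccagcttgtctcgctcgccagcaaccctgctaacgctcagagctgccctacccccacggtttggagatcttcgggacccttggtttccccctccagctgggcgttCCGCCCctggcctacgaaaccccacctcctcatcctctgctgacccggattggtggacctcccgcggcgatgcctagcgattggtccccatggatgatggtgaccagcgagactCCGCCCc
Robo4: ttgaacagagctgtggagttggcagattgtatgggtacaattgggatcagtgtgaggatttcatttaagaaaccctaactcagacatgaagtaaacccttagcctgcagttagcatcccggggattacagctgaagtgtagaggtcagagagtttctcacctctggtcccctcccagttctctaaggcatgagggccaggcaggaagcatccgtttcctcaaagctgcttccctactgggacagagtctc
Plxnb2: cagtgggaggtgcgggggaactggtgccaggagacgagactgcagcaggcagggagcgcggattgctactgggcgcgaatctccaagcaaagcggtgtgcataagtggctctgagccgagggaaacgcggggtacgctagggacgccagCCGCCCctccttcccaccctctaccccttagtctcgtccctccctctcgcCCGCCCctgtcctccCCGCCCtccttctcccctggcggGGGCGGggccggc

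The response to ICH in Fabp4CKO mice was examined next, on libraries that do not enter the comparison above. Of 74 genes tested, 19 were lower and 8 higher in ICH-Fabp4CKO than in Sham-Fabp4CKO. Over all genes 11.1% passed as lower and 24.5% as higher, against 25.7% and 10.8% of the members, and the median log2 fold change was -0.64 over members and 0.01 over all genes. The groups did not overlap for 49 members (66.2%), against 62.1% of all genes. These counts depended on single libraries: without ICH-Fabp4CKO library 2, 51 members were lower and 10 higher, and without ICH-Fabp4CKO library 1 they were 0 and 2. Leaving out Sham-Fabp4CKO library 1, 2 or 3 left 0 lower in each case and 0, 1 and 0 higher. The shares of all genes in these refits are not given here, so the counts show only how unsteady the calls on members are.

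The direction of response matched between genotypes for 68 of 74 genes, and no gene passed in opposite directions. All 8 genes that rose in Fabp4CKO also rose in Fabp4fl/fl: Epha2, Ephb4, Plxnb2, Plxnb3, Robo4, Sema3d, Sema4c and Sema4d. Plxnb2 went from 89.6, 93.2 and 90.7 CPM in Sham-Fabp4CKO to 399, 195 and 552 CPM in ICH-Fabp4CKO, a log2 fold change of 2.07 (SE 0.37, adjusted p = 0.0122). Sema4d went from 94.6, 99.9 and 82.6 CPM to 227, 151 and 269 CPM, a log2 fold change of 1.23 (SE 0.23, adjusted p = 0.0139). In both genes libraries 1 and 3 of ICH-Fabp4CKO were well above library 2, as were the microglial and the monocyte and macrophage sums. Epha2 (1.86, SE 0.37, adjusted p = 0.0153), Sema3d (1.49, SE 0.37, adjusted p = 0.0274), Ephb4 (1.00, SE 0.16, adjusted p = 0.00954) and Plxnb3 (0.92, SE 0.15, adjusted p = 0.00963) rose as well. For Plxnb3 the oligodendrocyte markers did not move alongside, with 0 of 10 higher, none of them at an unadjusted p under 0.05, and a median log2 fold change of -0.16.

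The 13 genes that fell in both genotypes included Epha6, Ntng1, Robo1, Plxna4, Slitrk3, Slitrk5 and Slitrk6. Epha6 went from 18.7, 17.4 and 16.4 CPM in Sham-Fabp4CKO to 3.17, 7.67 and 2.95 CPM in ICH-Fabp4CKO, a log2 fold change of -1.92 (SE 0.39, adjusted p = 0.0167). Robo1 went from 72.2, 76.7 and 80.7 CPM to 27.9, 47.2 and 27.5 CPM, a log2 fold change of -1.16 (SE 0.23, adjusted p = 0.0164). Ntng1 fell here also against sham libraries that were low in thalamic markers, from 40.4, 34.02 and 53.9 CPM to 10.5, 10.5 and 2.73 CPM, a log2 fold change of -2.43 (SE 0.51, adjusted p = 0.0185). In all 3 genes the ICH libraries lay below the sham libraries.

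In the Fabp4CKO comparison alone 6 genes passed as lower, Sema3c, Sema3e, Sema3f, Robo2, Ephb2 and Dcc. Sema3f, a repellent that acts through neuropilin-2, went from 16.04, 19.7 and 15.9 CPM to 7.304, 10.1 and 6.23 CPM, a log2 fold change of -1.12 (SE 0.22, adjusted p = 0.0151). Dcc went from 46.2, 44.4 and 38.3 CPM to 16.1, 25.4 and 11.97 CPM, a log2 fold change of -1.27 (SE 0.28, adjusted p = 0.0209), and Ephb2 from 19.3, 15.8 and 18.8 CPM to 11.3, 11.8 and 11.3 CPM, a log2 fold change of -0.64 (SE 0.14, adjusted p = 0.0195). None of the 6 passed the test of the difference between genotypes given below, so a response confined to Fabp4CKO was not shown.

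Slit1 shows how far ICH-Fabp4CKO library 2 set the spread. Its level was 83.2, 72.1 and 79.4 CPM in Sham-Fabp4CKO and 9.502, 42.1 and 8.42 CPM in ICH-Fabp4CKO, a log2 fold change of -1.96 (SE 0.64, adjusted p = 0.0542). Without library 2 the value was -3.13 (adjusted p = 3.81e-06). Unc5d, at 4.59, 22.2 and 2.73 CPM in ICH-Fabp4CKO, went from -1.91 (SE 0.75, adjusted p = 0.0837) to -3.36 (adjusted p = 2.21e-05) in the same way, and Slitrk1, at 11.1, 55.9 and 7.92 CPM, from -1.19 (SE 0.72, adjusted p = 0.213) to -2.60 (adjusted p = 1.58e-05). In all 3 genes library 2 was far above libraries 1 and 3. For Slit1 and Unc5d it stayed below the Sham-Fabp4CKO libraries, and for Slitrk1 it lay among them.

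**Figure D4:**
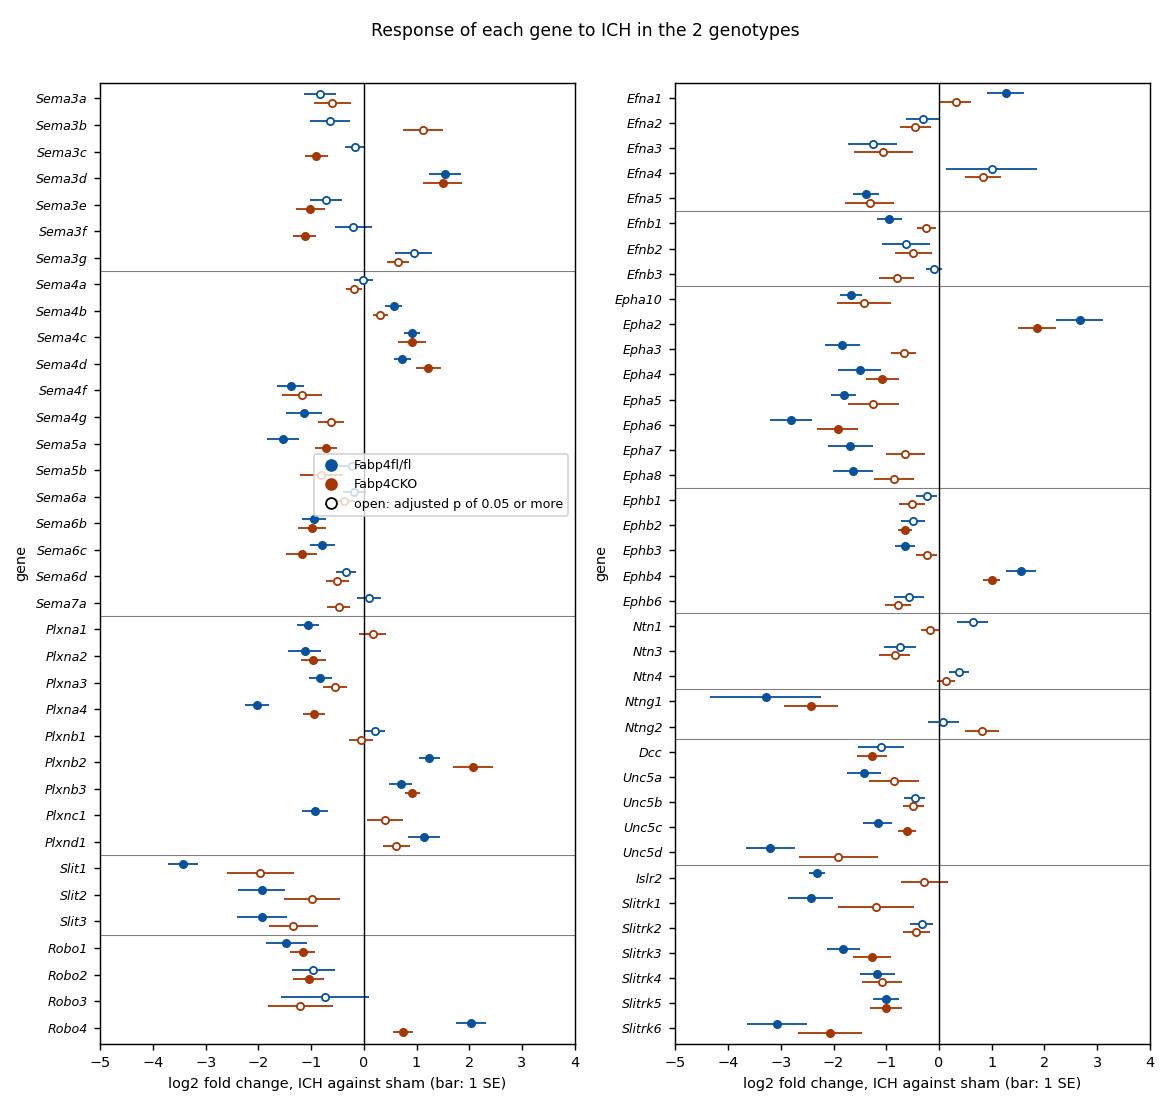
Log2 fold change of each tested gene for ICH against sham with 1 SE, in Fabp4fl/fl (blue) and Fabp4CKO (brown), by family; filled points had an adjusted p under 0.05. Points of the 2 genotypes fall on the same side of 0 for 68 of 74 genes, and those of Islr2, Plxna1, Plxnc1 and Sema3b lie far apart.

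The genotypes after ICH were compared between ICH-Fabp4CKO and ICH-Fabp4fl/fl. The microglial deletion, the Cre and the tamoxifen recorded only for Fabp4CKO cannot be told apart in this comparison. No member passed with the quasi-likelihood test (0 of 73, as in 0% of all genes). At an unadjusted p under 0.05, 6 members were higher and 5 lower, or 8.22% and 6.85% against 6.36% and 5.82% of all genes. Groups did not overlap for 14 members (19.2%), against 19.8% of all genes. With DESeq2, 3 of 73 members were higher and 1 lower at the adjusted threshold (all genes 1.75% and 2.21%). With all 12 libraries in 1 quasi-likelihood fit, 3 of 74 were higher and 1 lower (all genes 1.02% and 1.38%). In the main fit the members as a group therefore stood near the background. The calls in the 2 alternatives are too few to compare with the shares of all genes, and the genes below are described singly.

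The genes with the smallest p among those higher in ICH-Fabp4CKO were Plxnc1, Plxna1, Islr2, Plxna4, Epha3 and Efnb1. Plxnc1, the Sema7a receptor, was at 27.1, 35.1 and 19.5 CPM in ICH-Fabp4fl/fl and 70.3, 51.5 and 128 CPM in ICH-Fabp4CKO, a log2 fold change of 1.67 (SE 0.39, unadjusted p = 0.00413, adjusted p = 0.295). The adjusted p was 0.00766 with DESeq2 and 0.0416 in the fit over 12 libraries. Plxna1 was at 42.1, 60.5 and 41.6 CPM and 85.1, 80.4 and 148 CPM, a log2 fold change of 1.18 (SE 0.30, unadjusted p = 0.00676, adjusted p = 0.313), with 0.0286 and 0.0434 in those alternatives. For both plexins the lowest ICH-Fabp4CKO library exceeded the highest ICH-Fabp4fl/fl library, and library 3, the highest in microglial and macrophage markers, was the highest of its group.

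Islr2 was at 9.57, 9.79 and 9.46 CPM in ICH-Fabp4fl/fl and 20.2, 58.3 and 18.96 CPM in ICH-Fabp4CKO, a log2 fold change of 1.81 (SE 0.47, unadjusted p = 0.00689, adjusted p = 0.313). The adjusted p was 0.017 with DESeq2 and 0.0417 in the fit over 12 libraries. Without ICH-Fabp4CKO library 2, the library high in cortical markers, the log2 fold change was 1.08 (unadjusted p = 0.00073, adjusted p = 0.0697). Of 10 cortical excitatory markers 6 were higher in ICH-Fabp4CKO at an unadjusted p under 0.05 (median log2 fold change 2.91), and pan-neuronal markers were not (0 of 10, median 0.10). Relative to the pan-neuronal sum, Islr2 was 0.846, 1.19 and 1.12% in ICH-Fabp4CKO and 0.554, 0.363 and 0.241% in ICH-Fabp4fl/fl, without overlap.

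Plxna4 (0.98, SE 0.30, unadjusted p = 0.0158, adjusted p = 0.341), Epha3 (1.04, SE 0.35, unadjusted p = 0.0214, adjusted p = 0.35) and Efnb1 (0.79, SE 0.27, unadjusted p = 0.0253, adjusted p = 0.355) were higher, and passed neither with DESeq2 nor in the fit over 12 libraries. Plxna4 was at 42.5, 61.7 and 35.9 CPM in ICH-Fabp4CKO, between the sham level and the 17.7, 24.2 and 31.1 CPM of ICH-Fabp4fl/fl. Epha3 was at 2.59, 2.56 and 3.88 CPM and Efnb1 at 7.37, 10.6 and 10.1 CPM, against 1.27, 1.37 and 1.86 and 4.29, 6.86 and 5.68 CPM. These 3 genes thus had ICH-Fabp4CKO libraries that all exceeded the ICH-Fabp4fl/fl libraries.

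The genes lower in ICH-Fabp4CKO with the smallest p were Robo4, Efna1, Sema3c, Sema7a, Ephb4 and Sema3f. Robo4 was at 42.9, 29.5 and 19.98 CPM in ICH-Fabp4fl/fl and 14.03, 10.7 and 10.1 CPM in ICH-Fabp4CKO, a log2 fold change of -1.34 (SE 0.30, unadjusted p = 0.00317, adjusted p = 0.295). The adjusted p was 0.00481 with DESeq2 and 0.0342 in the fit over 12 libraries. Efna1 was at 13.999, 13.5 and 8.08 CPM and 7.498, 3.73 and 4.86 CPM, a log2 fold change of -1.08 (SE 0.34, unadjusted p = 0.0168, adjusted p = 0.343), and Ephb4 at 31.5, 22.1 and 13.8 CPM and 13.3, 10.7 and 13.2 CPM, a log2 fold change of -0.79 (SE 0.30, unadjusted p = 0.0354, adjusted p = 0.379). All 3 are genes of the endothelium, and their libraries did not overlap between genotypes.

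The endothelial markers moved the same way: 9 of 10 were lower in ICH-Fabp4CKO at an unadjusted p under 0.05 (median log2 fold change -1.26), and 0 passed the adjusted threshold. As a percent of their sum, Robo4 was 2.52, 3.02 and 2.07% in ICH-Fabp4CKO and 2.37, 2.63 and 2.83% in ICH-Fabp4fl/fl, which overlap, and Efna1 1.35, 1.05 and 0.995% and 0.773, 1.200 and 1.15%, which also overlap. Ephb4 was 2.395, 3.02 and 2.704% and 1.74, 1.97 and 1.96%, higher in ICH-Fabp4CKO when expressed this way. Epha2, by contrast, was at 8.47, 4.05 and 9.56 CPM in ICH-Fabp4CKO with a log2 fold change of -0.42 (SE 0.48, unadjusted p = 0.411, adjusted p = 0.751) between genotypes.

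Sema3c, Sema7a and Sema3f are ligands. Sema3c was at 26.4, 19.2 and 17.3 CPM in ICH-Fabp4fl/fl and 10.2, 15.7 and 12.02 CPM in ICH-Fabp4CKO, a log2 fold change of -0.67 (SE 0.24, unadjusted p = 0.0287, adjusted p = 0.36). Sema7a, the ligand of Plexin-C1 and of integrins, was at 184, 126 and 153 CPM and 118, 92.2 and 72.5 CPM, a log2 fold change of -0.65 (SE 0.24, unadjusted p = 0.0329, adjusted p = 0.369), so it was lower where its receptor gene Plxnc1 was higher. Of 10 oligodendrocyte markers 9 were lower in ICH-Fabp4CKO at an unadjusted p under 0.05 (median -1.17), and their part in the difference was not tested. Sema3f had a log2 fold change of -0.59 (SE 0.27, unadjusted p = 0.0668, adjusted p = 0.438).

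**Figure D5:**
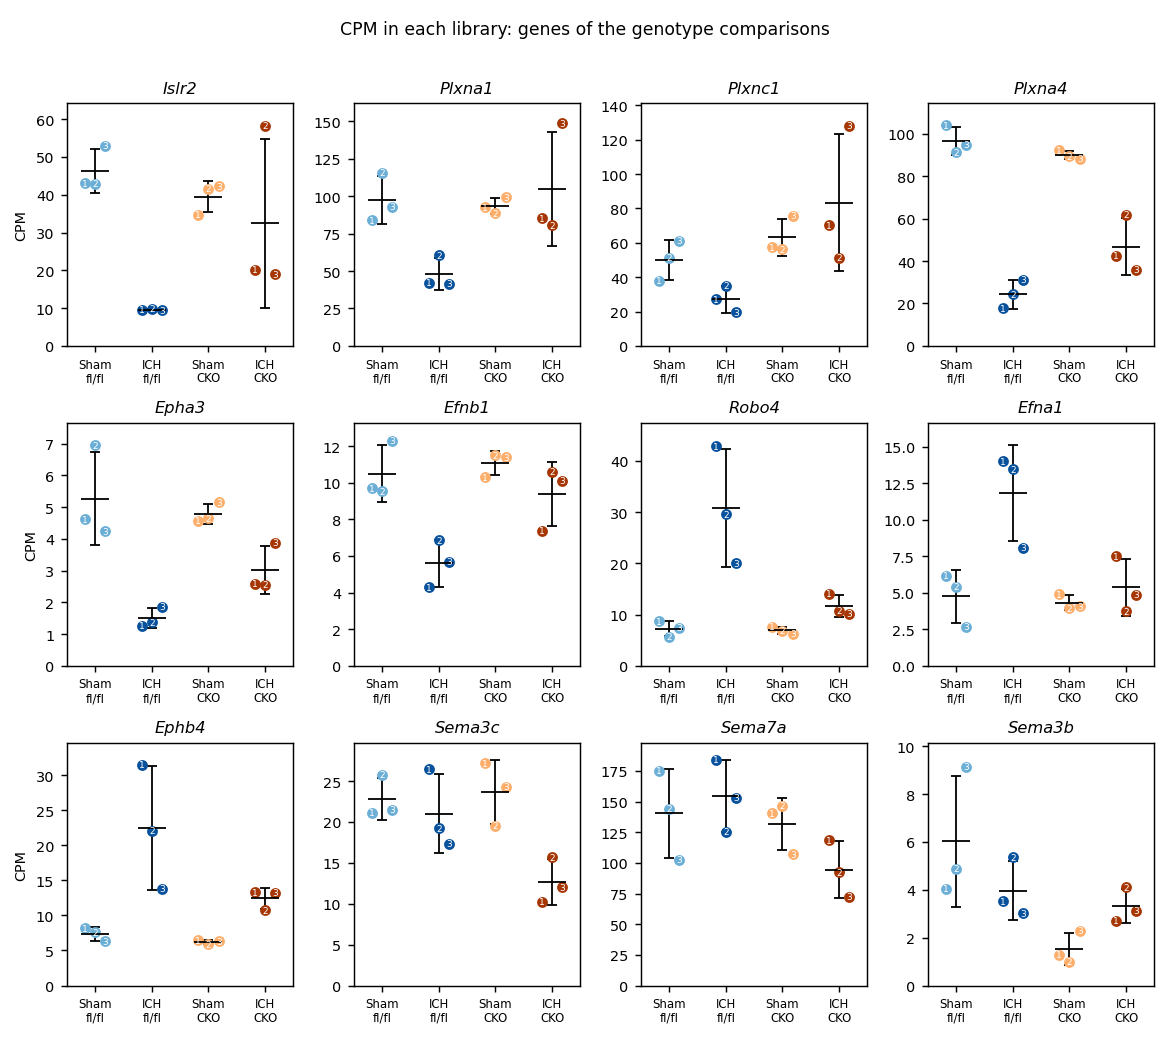
CPM of 12 genes in each library by group; numbered points are libraries, the horizontal mark is the mean and the bar 1 SD (n = 3). Islr2, Plxna1, Plxnc1, Plxna4, Epha3 and Efnb1 are higher in all ICH-Fabp4CKO than in all ICH-Fabp4fl/fl libraries, Robo4, Efna1, Ephb4, Sema3c and Sema7a are lower, and Sema3b differs between the sham groups.

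Whether the 2 genotypes responded differently to ICH was tested as the interaction over all 12 libraries, the response in Fabp4CKO minus that in Fabp4fl/fl. None of 74 members passed the adjusted threshold (0.0199% of all genes), while 7 were higher and 3 lower at an unadjusted p under 0.05, or 9.46% and 4.05% against 5.57% and 4.37% of all genes. Islr2 had an interaction of 1.99 (SE 0.51, unadjusted p = 0.00241, adjusted p = 0.269) on the log2 scale, from a response of -2.31 in Fabp4fl/fl and -0.28 in Fabp4CKO. Its adjusted p was 0.0134 with DESeq2, the only member to pass there, and without ICH-Fabp4CKO library 2 the interaction was 1.26 (adjusted p = 0.0195). Plxna1 (1.18, SE 0.34, unadjusted p = 0.00536, adjusted p = 0.312), Plxna4 (1.04, SE 0.31, unadjusted p = 0.0065, adjusted p = 0.325), Epha3 (1.13, SE 0.38, unadjusted p = 0.0135, adjusted p = 0.368) and Plxnc1 (1.28, SE 0.46, unadjusted p = 0.0187, adjusted p = 0.395) followed. Robo4 had an interaction of -1.33 (SE 0.38, unadjusted p = 0.00491, adjusted p = 0.307), from 2.03 in Fabp4fl/fl and 0.75 in Fabp4CKO, and Sema3c one of -0.78 (SE 0.30, unadjusted p = 0.0233, adjusted p = 0.414). Ntn1, Sema3f and Efna1 had interactions of -0.84, -0.97 and -1.001. Efnb3 (-0.74, SE 0.38, unadjusted p = 0.0734, adjusted p = 0.546) passed, in the negative direction, only without ICH-Fabp4CKO library 2.

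The genotypes without hemorrhage were compared between the sham groups, where the deletion, the Cre and the recorded tamoxifen likewise cannot be told apart. No member passed (0 of 74, against 0.111% of all genes), and 5 were higher and 5 lower at an unadjusted p under 0.05, 6.76% each against 4.15% and 6.07% of all genes. Groups did not overlap for 10 members (13.5%), against 14.8% of all genes. Sema3b, a secreted semaphorin, had the smallest p: it was at 4.05, 4.87 and 9.14 CPM in Sham-Fabp4fl/fl and 1.29, 0.985 and 2.298 CPM in Sham-Fabp4CKO, a log2 fold change of -1.97 (SE 0.42, unadjusted p = 0.00186, adjusted p = 0.278). Its adjusted p was 0.000916 with DESeq2, and its log2 fold change was -1.53 without Sham-Fabp4fl/fl library 3 and -2.58 against that library alone. Of 7 tested fibroblast markers 5 were lower in Sham-Fabp4CKO at an unadjusted p under 0.05 (median -1.06), and their part in the Sema3b difference was not tested. The interaction for Sema3b was 1.72 (SE 0.57, unadjusted p = 0.0116, adjusted p = 0.354).

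The other sham differences were smaller than that of Sema3b. Epha4 was at 199.8, 205 and 187 CPM and 158, 176 and 142 CPM, a log2 fold change of -0.30 (SE 0.10, unadjusted p = 0.0172, adjusted p = 0.475), and Unc5a at 53.3, 56.8 and 59.4 CPM and 64.3, 75.8 and 60.9 CPM, a log2 fold change of 0.26 (SE 0.11, unadjusted p = 0.0425, adjusted p = 0.484). Ntng1 had a log2 fold change of -1.29 (SE 0.51, unadjusted p = 0.0355, adjusted p = 0.484), which was 0.38 against Sham-Fabp4fl/fl library 3 alone, and 6 of 7 thalamic markers were lower at an unadjusted p under 0.05. Without library 3, 15 members were higher and 12 lower in Sham-Fabp4CKO, led by Efnb2 (1.16), the arterial ligand of Ephb4, and Ntng1 (-1.72). The share of all genes past the threshold without library 3 is not given here. Against library 3 alone Efnb2 was -0.33, and 37 of 74 members kept the direction found with all 3 libraries. Slitrk2, Slitrk5, Ntn3, Sema4a and Ephb6 had log2 fold changes of 0.26, 0.30, 0.48, 0.35 and 0.35, and Sema3g, Plxnb3 and Epha8 of -0.51, -0.45 and -0.38, none of which passed.

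Co-receptors and other guidance molecules outside the named families were followed as a list of 22 partners. In ICH-Fabp4fl/fl against Sham-Fabp4fl/fl 12 fell and 2 rose, where 19.3% of all genes passed as lower and 26.2% as higher (median log2 fold change -0.63, against 0.02 over all genes). The adhesion molecule Dscam was at 77.2, 73.7 and 59.8 CPM in sham and 9.78, 19.1 and 25.9 CPM after ICH, a log2 fold change of -1.97 (SE 0.34, adjusted p = 0.00411), and L1cam at 189, 194 and 208 CPM and 21.4, 45.9 and 71.2 CPM, a log2 fold change of -2.12 (SE 0.41, adjusted p = 0.00616). Lingo1 (-2.07, SE 0.44, adjusted p = 0.00908) and Rtn4rl1 (-1.43, SE 0.31, adjusted p = 0.00936), both of the receptor system for myelin inhibitors, fell too. Nrp1, the neuropilin shared by class 3 semaphorins and VEGF, rose (0.70, SE 0.21, adjusted p = 0.0315), as did Lrig1 (0.71, SE 0.24, adjusted p = 0.0432), while Rgma (0.19, SE 0.19, adjusted p = 0.422) and Nrp2 (0.35, SE 0.34, adjusted p = 0.43) did not pass. In Fabp4CKO 5 of 22 partners fell and 2 rose, against 11.1% and 24.5% of all genes, with Nrp1 going from 19.5, 18.1 and 20.3 CPM to 97.8, 28.1 and 202 CPM, a log2 fold change of 2.51 (SE 0.66, adjusted p = 0.033).

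A list of 41 signalling genes downstream of the receptors divided more evenly, with 12 lower and 8 higher in ICH-Fabp4fl/fl (median log2 fold change -0.28), against 19.3% and 26.2% of all genes. In ICH-Fabp4CKO the counts were 7 and 7 (median -0.26), against 11.1% and 24.5% of all genes. Among those that fell in Fabp4fl/fl were Mical2 (-2.22, SE 0.32, adjusted p = 0.00196), an actin oxidase of the plexin pathway, Ablim3 (-2.17, SE 0.35, adjusted p = 0.00295) and the guanine nucleotide exchange factors Trio (-1.30, SE 0.24, adjusted p = 0.00501) and Tiam1 (-1.22, SE 0.23, adjusted p = 0.00542). Among those that rose were Mical1 (1.85, SE 0.18, adjusted p = 0.000468), the kinase Fes (3.34, SE 0.32, adjusted p = 0.000491), which acts downstream of Sema3a and is abundant in myeloid cells, Vav2 (1.16, SE 0.14, adjusted p = 0.00099) and Rhoa (1.36, SE 0.21, adjusted p = 0.00261). Between genotypes after ICH 0 partners and 0 signalling genes passed the adjusted threshold, and 3 partners and 5 signalling genes were higher, 1 and 2 lower, at an unadjusted p under 0.05, where 6.36% of all genes were higher and 5.82% lower.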

How the data were processed

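The authors deposited 1 table of estimated counts (expected counts of reads per gene, made from aligned reads), not normalized. It covers 12 libraries of polyA-selected RNA. Of all values in a library, zeros included, 7.36% to 8.69% were not whole numbers. The submitters' processing notes name Bowtie2 2.2.8, HISAT2, StringTie 1.3.1 and DESeq2; the genome build and the counting settings are not given in the sources used here. Total counts ran from 15650813 to 22406216, which sets the precision for genes with few reads. Rounded counts entered the quasi-likelihood F-test of edgeR 4.0.16 (R 4.3.3; TMM; filterByExpr, min.count 10, min.total.count 15) on the groups compared, or on all 12 libraries for the interaction, with Benjamini-Hochberg adjustment over all genes at 0.05. The SE is the log2 fold change divided by the square root of F. The steps were tested on simulated counts in which 100 genes changed by 1.5 and 100 by 3 on the log2 scale. Of those changed by 1.5, 68 were called for ICH in Fabp4fl/fl and 49 for ICH in Fabp4CKO. Between the ICH groups 33 were called, and between the sham groups 88. Of those changed by 3, the numbers were 96, 90, 89 and 100. A lack of calls between the ICH groups therefore does not show a lack of difference. Promoter windows came from RefSeq tables, read with Python 3.11.15 and pandas 2.3.3.

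Genes with full values are, for ICH in Fabp4fl/fl, up to 15 per direction by p among those past the threshold without overlap, up to 6 per direction in other comparisons, the extremes of each family, and up to 4 per direction of 2 pathway lists; other members are named to account for all 76. Members, lists and this rule were chosen with earlier results of these data known. Alternatives were relative log expression, total counts without TMM, no filter, DESeq2 1.42.0, all 12 libraries in 1 fit, a replicate block, each library left out, and a fold change of at least 2; leaving out Sham-Fabp4fl/fl libraries 1 and 2 together was chosen after seeing the data.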

Additional observations from a re-analysis of the deposited data

How the results depend on the processing

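Among the genes chosen for full values in each comparison, none past the threshold in the main fit turned direction under the alternatives run. Some genes not past it there did. Between the sham groups, Ntng1 and Efnb2 passed without Sham-Fabp4fl/fl library 3 and turned direction against that library alone. In ICH-Fabp4fl/fl against Sham-Fabp4fl/fl, 11 genes were higher and 34 lower; leaving out 1 library gave 7 to 12 and 24 to 42 (7 higher without Sham-Fabp4fl/fl library 2 or ICH-Fabp4fl/fl library 2), a fold change of at least 2 left 7 higher, and dropping Sham-Fabp4fl/fl libraries 1 and 2 together left 1 and 9. In ICH-Fabp4CKO against Sham-Fabp4CKO, 8 were higher and 19 lower; leaving out 1 library gave 0 to 10 and 0 to 51 (10 lower without ICH-Fabp4CKO library 3), DESeq2 gave 33 lower, and a fold change of at least 2 left 5 and 12. Between the ICH groups, 0 were called with 1 library left out, and 3 higher and 1 lower with DESeq2 or with all 12 libraries in 1 fit. Between the sham groups, leaving out 1 library gave 0 to 15 higher and 0 to 12 lower, the 15 and 12 without Sham-Fabp4fl/fl library 3, and DESeq2 gave 1 lower. For the interaction, leaving out 1 library gave 0 to 1 in each direction and DESeq2 1 higher. Shares of all genes are not given for the fits with a library left out, nor for the other alternatives except where stated above. These counts therefore show how the calls on members shift, not how members differ from other genes. The cause of these shifts was not tested.

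Replicate numbers did not pair the libraries in the same way in each comparison. For ICH in Fabp4fl/fl, same-numbered libraries had correlations of 0.235, 0.044 and 0.165, a mean of 0.148 against -0.0725 for other numbers. The corresponding means were -0.141 and 0.0813 between the ICH groups and -0.0957 and 0.0507 between the sham groups. For ICH in Fabp4CKO they were 0.00475 and -0.0027. With the number as a replicate block, 12 genes were higher and 40 lower in ICH-Fabp4fl/fl, 7 and 15 in ICH-Fabp4CKO, and 0 elsewhere. Depth limits Ntn5, Epha1, Efna4 and Robo3, with lowest counts of 0, 2, 2 and 3 reads in a library.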
